A study of Mus musculus with 4 samples.

Results

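The genes described here are 10 markers and regulators of the trophectoderm, the outer epithelium of the blastocyst that gives rise to the placenta. They are the transcription factor genes Cdx2, Eomes, Elf5, Gata3, Tfap2a, Tfap2c and Ets2, the surface protein gene Plet1, and the keratin genes Krt8 and Krt18. They were chosen by name from the array's annotation, each had 1 probe set of its own, and all 10 were among the 19938 genes tested. RNA came from E14 cells, a mouse embryonic stem cell line, that carried a lentiviral shRNA against Usp22 (2 arrays, replicates 1 and 2) or a control shRNA against Luc (2 arrays, replicates 1 and 2). Usp22 removes ubiquitin from histones as part of SAGA, a coactivator complex of transcription. Both groups were feeder-free on gelatin and received LIF, 20% FBS, PD0325901 at 1 µM to inhibit MEK and CH99021 at 3 µM to inhibit GSK3. Every value here is therefore from cells in medium that favours the naive state. The labels do not tell whether replicates were separate cultures. The p-values therefore cover only how far these samples spread, which may be technical.

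In the early embryo, Hippo signalling and the TEAD4 and YAP proteins switch on Cdx2 and Gata3 in outer cells, and CDX2 and OCT4 (the product of Pou5f1) repress each other. Eomes, Elf5, Tfap2c and Ets2 then act in a network that keeps trophoblast stem cells dividing under FGF4, which signals through the receptor encoded by Fgfr2. Keratins 8 and 18 pair to form the intermediate filaments of simple epithelia, the trophectoderm among them. Embryonic stem cells rarely enter this lineage, and the loss of Pou5f1 or the forced expression of Cdx2 drives them towards it.

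The arrays carried the ES cell pattern. Of 12 ES cell markers, 11 lay above the receptor background, a level of 6.99 on the log2 scale below which 95% of the mean signals of 1194 olfactory and vomeronasal receptor genes fell. Of the 19938 genes tested, 9736 lay above that level, so passing it does not by itself mark a cell type. Pou5f1 and Nanog stood far higher, at percentiles 98.8 and 99.6 of the mean signals of all genes. Usp22 had normalized log2 signals of 8.23 and 8.29 on the depleted arrays, against 9.41 and 9.36 on the control arrays (log2 fold change −1.12, SE 0.27, limma adjusted p = 0.00826), so the targeted gene matched the labels. Array medians of the deposited intensities ran from 110 to 115 for the depleted arrays and from 120 to 128 for the control arrays. Control replicate 2 stood apart: it gave the highest or the lowest value of the 4 arrays for 80.5% of all genes and for 9 of the 10 described here, all except Krt18. Depleted replicate 1 did so for 61.8% of all genes. Across genes, control replicate 1 correlated more closely with depleted replicate 2 (0.974) than with control replicate 2 (0.941). The 2 depleted arrays correlated at 0.978. The median log2 fold change of all genes was −0.12 (depleted minus control), and −0.24 when the deposited values were used with no further scaling.

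After Usp22 depletion, Plet1, Ets2 and Tfap2a rose, by 1.8-fold to 2.1-fold, while Krt8, Krt18 and Cdx2 had lower signals on both depleted arrays without passing the test. Thus 3 of the 10 genes rose, against 2.62% of all genes, and 0 fell, against 0.105% of all genes (limma p below 0.05 after Benjamini-Hochberg adjustment across the 19938 genes). At an unadjusted limma p under 0.05, 3 of the 10 were higher and 2 lower, against 15.4% and 6.63% of all genes. The depleted arrays both lay above the control arrays for 4 of the 10 and both below them for 4, and such separations were seen for 27.4% and 33.3% of all genes. The 10 were named with earlier results of these data known, so these shares describe the genes and are no test of the set. The median log2 fold change of the 10 was 0.08. The 10 genes therefore lay on both sides of 0.

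**Figure D1:**
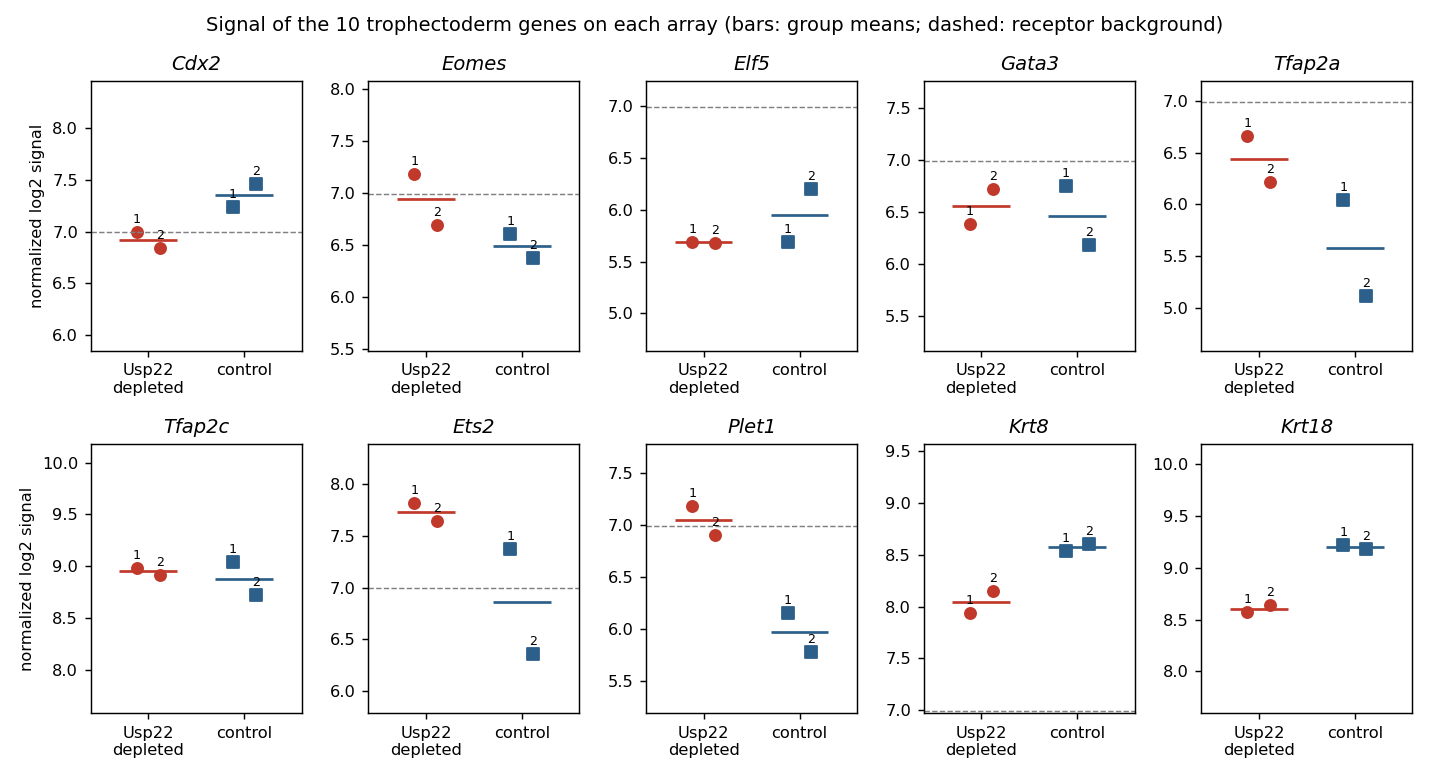
Normalized log2 signal of each gene on the 2 Usp22-depleted arrays (red circles) and the 2 control arrays (blue squares), with replicate numbers, group means as bars and the receptor background (6.99) as a dashed line where it falls within the panel. Every panel spans the same number of log2 units, and levels are not comparable between genes. Plet1, Cdx2, Krt8 and Krt18 are further apart between groups than within them, while Ets2 and Tfap2a are lowest on control replicate 2.

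Among the transcription factors that set up the trophectoderm, none of Cdx2, Eomes, Elf5 and Gata3 passed the test. Cdx2 encodes the caudal-type homeobox factor needed to form the lineage. Its normalized log2 signal was 6.99 and 6.84 on the depleted arrays, against 7.24 and 7.46 on the control arrays (log2 fold change −0.43, SE 0.27, limma adjusted p = 0.298). Both depleted arrays lay below both control arrays, and the group means, 6.92 ± 0.11 in depleted cells and 7.35 ± 0.16 in control cells (SD, n = 2 each), fell on opposite sides of the receptor background. The deposited intensities, on a linear scale, were 119 and 112 on the depleted arrays and 154 and 181 on the control arrays. Without control replicate 1 the same difference was −0.54 and passed (limma adjusted p = 0.0475), and that setting passed 21.2% of all genes as lower.

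Eomes, a T-box factor of trophoblast stem cells that also acts in the primitive streak, lay in the other direction. It read 7.19 and 6.69 on the depleted arrays, against 6.61 and 6.37 on the control arrays (log2 fold change 0.45, SE 0.27, limma adjusted p = 0.281). The groups did not overlap, but the gap between them (0.08) was smaller than the distance between the depleted arrays (0.50). Only depleted replicate 1 exceeded the receptor background. Without control replicate 1 the difference was 0.57 and passed (limma adjusted p = 0.0464), as did 24.5% of all genes in the same direction, and without depleted replicate 1 it was 0.20.

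Elf5 encodes the ETS factor that guards the trophoblast stem cell state and whose promoter is methylated in ES cells. Its signals were 5.69 and 5.68 on the depleted arrays, against 5.69 and 6.20 on the control arrays, all below the receptor background (log2 fold change −0.26, SE 0.27, limma adjusted p = 0.495). Control replicate 1 could not be told from the depleted arrays, and without control replicate 2 the difference was −0.01. Gata3, a zinc finger factor that works beside Cdx2, read 6.39 and 6.72 on the depleted arrays and 6.74 and 6.18 on the control arrays, also below the receptor background throughout. These groups overlapped, and the log2 fold change of 0.09 had a 95% interval from −0.43 to 0.62 (limma adjusted p = 0.807), which leaves room for a moderate change either way. Its sign turned on the deposited log2 values (−0.09), without control replicate 2 (−0.19) and without depleted replicate 2 (−0.07).

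The pair of AP-2 factors differed in their calls. Tfap2a, which acts mainly in surface ectoderm and neural crest and is also found in trophoblast, read 6.66 and 6.22 on the depleted arrays, against 6.04 and 5.12 on the control arrays. Both depleted arrays lay above both control arrays, and Tfap2a rose 1.82-fold (log2 fold change 0.86, SE 0.27, limma adjusted p = 0.0495). All 4 values were below the receptor background, and the distance between the control arrays (0.93) was larger than the fold change itself. Without control replicate 2 the log2 fold change was 0.40 (limma adjusted p = 0.369), and without control replicate 1 it was 1.32.

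Tfap2c, the AP-2 factor that trophoblast stem cells require, gave a different picture. It read 8.99 and 8.92 on the depleted arrays, against 9.05 and 8.72 on the control arrays, each of them above the receptor background. The groups overlapped, with a log2 fold change of 0.07 and a 95% interval from −0.46 to 0.60 (limma adjusted p = 0.857). The deposited intensities of 526 and 498 on the depleted arrays lay between those of control replicates 1 and 2, 531 and 398. The difference between the changes of Tfap2a and Tfap2c was not tested.

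Ets2, an ETS-domain factor downstream of FGF and MAP kinase signalling that trophoblast stem cells need for self-renewal, rose 1.82-fold. It read 7.82 and 7.65 on the depleted arrays, against 7.37 and 6.36 on the control arrays (log2 fold change 0.87, SE 0.27, limma adjusted p = 0.0470). Both depleted arrays were above both control arrays, by at least 0.27, but the control arrays differed from each other by 1.02. The means were 7.73 ± 0.12 in depleted cells and 6.86 ± 0.72 in control cells (SD, n = 2 each), the second of them below the receptor background. Without control replicate 2 the log2 fold change was 0.36 (limma adjusted p = 0.393), and without control replicate 1 it was 1.38. In the deposited intensities the same array stood out, with 225 and 199 on the depleted arrays, against 169 on control replicate 1 and 90.8 on control replicate 2.

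Plet1 encodes a glycosylated surface protein of early trophoblast and of several epithelial progenitors, and it had the largest change of the 10. It read 7.19 and 6.90 on the depleted arrays, against 6.15 and 5.78 on the control arrays. Plet1 rose 2.11-fold (log2 fold change 1.08, SE 0.27, limma adjusted p = 0.0117), with means of 7.05 ± 0.20 in depleted cells and 5.97 ± 0.26 in control cells (SD, n = 2 each). The gap between the groups, 0.75, exceeded the distances within them, 0.29 between the depleted arrays and 0.37 between the control arrays. Its mean was above the receptor background in depleted cells and below it in control cells. Without control replicate 2 the log2 fold change was 0.89 and no longer passed (limma adjusted p = 0.0678), and without control replicate 1 it was 1.26. The deposited intensities were 138 and 117 on the depleted arrays, against 73.5 and 60.4 on the control arrays.

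Krt8 and Krt18, which encode the type II and type I partners of one keratin filament, were both lower after depletion, and neither passed the test. Krt8 read 7.93 and 8.15 on the depleted arrays, against 8.53 and 8.61 on the control arrays (log2 fold change −0.53, SE 0.27, limma adjusted p = 0.224). Krt18 read 8.57 and 8.64 on the depleted arrays, against 9.22 and 9.18 on the control arrays (log2 fold change −0.60, SE 0.27, limma adjusted p = 0.177). For both genes the depleted arrays lay below the control arrays, and all 8 values were above the receptor background. Krt8 was thus lower by 1.44-fold and Krt18 by 1.51-fold on average, and no test of the pair together was made.

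For both keratins the groups differed by more than the arrays within a group. Krt18 had means of 8.61 ± 0.051 in depleted cells and 9.20 ± 0.026 in control cells (SD, n = 2 each), and Krt8 had means of 8.04 ± 0.15 in depleted cells and 8.57 ± 0.051 in control cells. In linear intensities, Krt18 was deposited at 389 and 412 on the depleted arrays, against 603 and 550 on the control arrays. Krt8 stood at 245 and 288 on the depleted arrays, against 373 and 368 on the control arrays. The limma fit gave every gene the same standard error, 0.27, whatever its own spread. With a standard error that follows the signal level and with robust settings, Krt18 passed (limma adjusted p = 0.0426), while Krt8 did not (0.143), and under that setting 1.7% of all genes fell. The values also depended on the scaling: with each array centred on its median, Krt8 stood at −0.34 and Krt18 at −0.38 (limma adjusted p = 0.407 and 0.358). Leaving out any 1 array kept Krt18 between −0.63 and −0.56, the narrowest range of the 10, and Krt8 between −0.64 and −0.42.

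**Figure D2:**
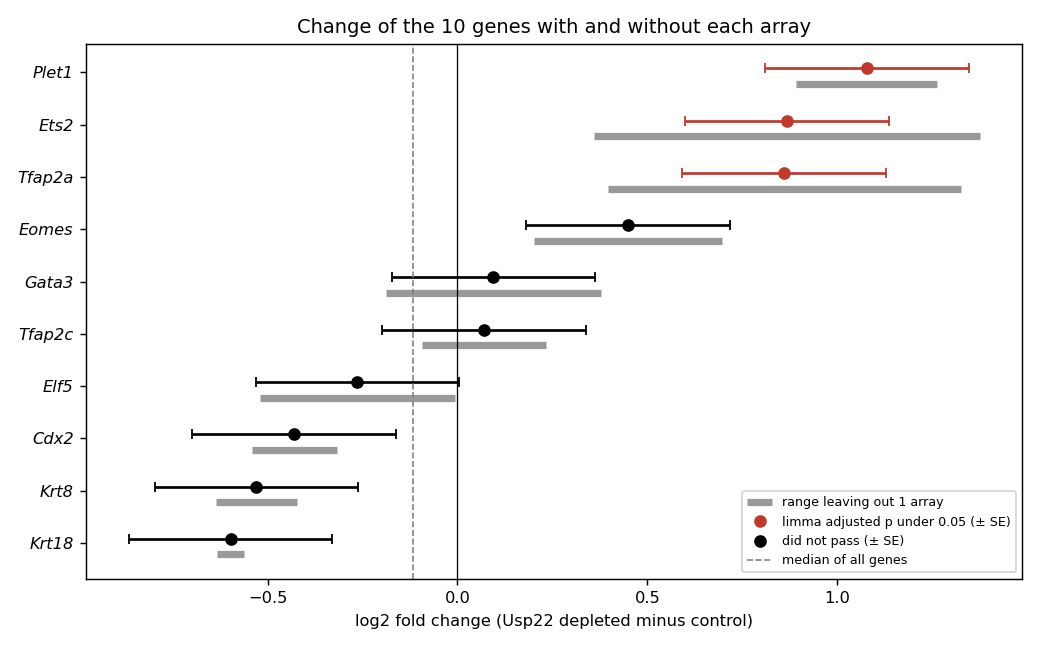
Log2 fold change (Usp22 depleted minus control) of each gene with its standard error (points; red where the limma adjusted p was under 0.05) and the range of the same value when 1 array is left out (grey bars). The dashed line is the median of all genes, −0.12. Ets2 and Tfap2a have the widest grey bars (0.36 to 1.38 and 0.40 to 1.32) and Krt18 the narrowest.

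A description chosen after the values were seen separates the genes further. For Plet1, Cdx2, Krt8 and Krt18, the gap between the groups was larger than either distance within a group, with 1 of them higher and 3 lower. Across all genes, 9.44% met this as higher and 9.82% as lower. Ets2 and Tfap2a, which passed the test, did not meet it. In bulk RNA, a lower keratin signal from fewer cells that express keratin cannot be told apart from less keratin RNA in each cell.

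The start regions of the genes that rose and of the keratin pair are shown so that they can be compared, each running from 250 bases before to 50 bases after the annotated transcription start (RefSeq, build GRCm38.p6; 9 of the 10 genes had an entry, and Tfap2c did not). All are written 5′ to 3′ along the gene. Capitals mark matches to TATAAA (the TATA box) and to GCCNNNGGC (the AP-2 motif), both searched on both strands.
Plet1 (chr9:50494275-50494574, plus strand): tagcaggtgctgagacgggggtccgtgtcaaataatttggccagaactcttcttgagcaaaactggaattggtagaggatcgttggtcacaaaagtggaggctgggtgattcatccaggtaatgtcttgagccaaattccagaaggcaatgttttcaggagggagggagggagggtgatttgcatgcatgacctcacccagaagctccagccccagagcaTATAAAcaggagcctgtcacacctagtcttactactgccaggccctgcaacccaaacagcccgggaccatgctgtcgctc
Ets2 (chr16:95702157-95702456, plus strand): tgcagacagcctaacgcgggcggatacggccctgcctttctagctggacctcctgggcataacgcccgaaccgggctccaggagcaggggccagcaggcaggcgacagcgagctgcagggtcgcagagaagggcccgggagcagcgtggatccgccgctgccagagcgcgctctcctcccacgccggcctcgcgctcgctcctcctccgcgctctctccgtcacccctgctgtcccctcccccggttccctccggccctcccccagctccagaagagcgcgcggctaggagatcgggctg
Tfap2a, outer start (chr13:40734871-40735170, minus strand): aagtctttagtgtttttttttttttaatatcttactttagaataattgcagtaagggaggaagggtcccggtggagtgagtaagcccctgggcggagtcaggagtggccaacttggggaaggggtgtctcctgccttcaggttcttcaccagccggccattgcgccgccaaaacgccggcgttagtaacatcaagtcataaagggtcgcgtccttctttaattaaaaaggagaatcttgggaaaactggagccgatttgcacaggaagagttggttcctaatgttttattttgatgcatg
Tfap2a, inner start (chr13:40733746-40734045, minus strand): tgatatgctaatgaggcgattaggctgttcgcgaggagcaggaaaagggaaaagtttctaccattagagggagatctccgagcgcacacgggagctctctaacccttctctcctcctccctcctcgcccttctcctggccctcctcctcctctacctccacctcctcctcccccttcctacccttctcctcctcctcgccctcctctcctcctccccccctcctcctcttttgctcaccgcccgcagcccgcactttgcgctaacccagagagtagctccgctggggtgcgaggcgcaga
Krt8 (chr15:102004293-102004592, minus strand): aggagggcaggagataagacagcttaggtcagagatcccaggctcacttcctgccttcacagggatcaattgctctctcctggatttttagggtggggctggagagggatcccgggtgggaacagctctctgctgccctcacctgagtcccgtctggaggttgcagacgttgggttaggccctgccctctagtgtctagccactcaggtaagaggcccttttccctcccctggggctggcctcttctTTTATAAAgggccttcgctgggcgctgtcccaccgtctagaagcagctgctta
Krt18 (chr15:102027966-102028265, plus strand): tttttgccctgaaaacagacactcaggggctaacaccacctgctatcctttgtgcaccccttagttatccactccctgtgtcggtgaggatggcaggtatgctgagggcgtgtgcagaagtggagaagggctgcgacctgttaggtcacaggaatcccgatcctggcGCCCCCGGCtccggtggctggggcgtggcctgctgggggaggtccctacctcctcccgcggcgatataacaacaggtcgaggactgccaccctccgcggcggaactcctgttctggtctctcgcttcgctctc

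Plet1 had TATAAA 30 bases before its annotated start, and Krt8 had it 1 base before the start, with a match on the other strand that overlaps it. TATAAA was present in 13.6% of all 32851 start regions of this length. The AP-2 motif occurred once in Krt18, 83 bases before the start, once in Cdx2, 16 bases before it, and 3 times in Gata3, against 16.6% of all start regions with a match. No match to either motif lay in the shown windows of Ets2 and Tfap2a. The ETS core GGAA was in each of the 11 windows of the 9 genes, and in 96.0% of all windows. The GATA motif AGATAA was in 1 of the 11, that of Krt8, against 11.2% of all windows. Krt8 and Krt18 lie near each other on chromosome 15, with 2 predicted genes annotated between them.

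Genes that work upstream of the trophectoderm factors did not pass. For this list and those below, the shares to compare with are 2.62% of all genes that rose and 0.105% that fell. The shares at an unadjusted limma p under 0.05 are 15.4% higher and 6.63% lower. Of 13 measured genes of the Hippo pathway, 0 rose and 0 fell (limma; 2 higher and 2 lower at an unadjusted p under 0.05), with a median log2 fold change of −0.16, or 0.10 without control replicate 1. The kinase gene Lats1 stood at 0.65, Amotl2, which encodes an angiomotin, at −0.61, and the coactivator gene Yap1 at −0.56 (limma adjusted p from 0.144 to 0.200). Without control replicate 2 these were 0.24, −0.35 and −0.32. Yap1 read 9.20 and 9.17 on the depleted arrays, against 9.51 and 9.99 on the control arrays. Among 10 measured genes known to hold the trophectoderm programme down in ES cells, 0 rose and 0 fell (limma; 1 higher and 0 lower at an unadjusted p under 0.05), and the median was −0.33. Pou5f1 stood at −0.31 and Nanog at −0.42, Sall4, a zinc finger partner of Oct4, at −0.48, the corepressor gene Trim28 at −0.48 and Sox2 at 0.59 (limma adjusted p from 0.182 to 0.422). Of these 10 genes, 7 were lower and 2 higher without overlap, against 33.3% and 27.4% of all genes. All 10 lay above the receptor background, where the shares of all genes were 37.7% and 36.8%. With each array centred on its median, their median was −0.11. The calls depended on the variance model. With limma's intensity trend, Nanog (adjusted p = 0.000102) and Sall4 (0.00878) passed as lower and Sox2 (0.0175) as higher, while Pou5f1 did not pass (0.0614).

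Trophoblast stem cell and FGF genes held 1 further gene that rose. Fgfr2, the receptor through which FGF4 sustains trophoblast stem cells, read 6.60 and 6.56 on the depleted arrays, against 5.72 and 4.99 on the control arrays (log2 fold change 1.22, limma adjusted p = 0.00343). Both depleted arrays were above both control arrays, although every value was below the receptor background, and without control replicate 2 the value was 0.86 and did not pass (limma adjusted p = 0.0744). Of the 17 measured genes 1 rose and 0 fell, against 2.62% and 0.105% of all genes (limma). At an unadjusted limma p under 0.05, 4 were higher and 1 lower, against 15.4% and 6.63% of all genes. The median of the list was 0.20, or −0.06 without control replicate 2. Rhox6, a homeobox gene of the placenta and germ line, stood at −0.71 and the chromatin organiser gene Satb1 at 0.67 (limma adjusted p = 0.112 and 0.133).

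Genes of later trophoblast differentiation showed 0 rises and 0 falls among 18 measured (limma; 1 higher and 2 lower at an unadjusted p under 0.05). Their median log2 fold change was −0.32, and 0.00013 without control replicate 2. Cited1, a coactivator gene of the placenta, stood at 0.82, the imprinted gene Peg10, needed for placental development, at −0.75 and Gata2 at −0.63 (limma adjusted p = 0.0630, 0.0929 and 0.155). Peg10 read 10.90 and 11.05 on the depleted arrays, against 11.72 and 11.73 on the control arrays, so that the groups lay apart by more than their own spread.

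The other keratins were read beside Krt8 and Krt18. Of 46 measured, 0 rose and 0 fell (limma; 3 higher and 3 lower at an unadjusted p under 0.05), while 18 were lower and 6 higher without overlap, near the 33.3% and below the 27.4% of all genes. Their median was −0.26, against −0.12 for all genes, and it was −0.06 without control replicate 2. The 35 keratins below the receptor background had a median of −0.22, near the −0.20 of the 1194 receptor genes themselves. Only 11 of the 46 lay above the receptor background, with a median of −0.39, and 8 of these were lower and 1 higher without overlap. Among all genes above that level the median was −0.03, and 37.7% were lower and 36.8% higher without overlap. Krt19, a further keratin of simple epithelia, stood at 0.64, Krt17, a keratin of stressed and basal epithelia, at 0.71, and the corneal keratin gene Krt12 at −0.60 (limma adjusted p from 0.112 to 0.177). Krt19 read 6.36 and 6.66 on the depleted arrays, against 6.37 and 5.36 on the control arrays, so that its groups overlapped, and it stood at 0.14 without control replicate 2. Of 15 measured genes of other intermediate filaments, 0 rose and 0 fell (limma; 1 higher and 1 lower at an unadjusted p under 0.05), with Des, the muscle desmin gene, at 0.74 (0.32 without control replicate 2), the neurofilament gene Nefh at −0.62 and the lamin gene Lmnb1 at −0.49.

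Epithelial junction and cavitation genes, which seal the trophectoderm and pump fluid into the blastocyst, also held 0 rises and 0 falls among 22 measured (limma; 3 higher and 2 lower at an unadjusted p under 0.05). Gja1, which encodes a connexin of gap junctions, read 9.26 and 9.32 on the depleted arrays, against 8.57 and 8.50 on the control arrays (log2 fold change 0.75, limma adjusted p = 0.0909). Ocln, the tight junction occludin gene, stood at 0.73, and Jup, the plakoglobin gene of desmosomes and adherens junctions, at −0.55 (limma adjusted p = 0.102 and 0.210). The median of the list was 0.11, and 0.03 without control replicate 1. Without control replicate 2, Gja1 stood at 0.72 and Ocln at 0.46. With limma's intensity trend, Gja1 passed as higher (adjusted p = 0.0115) and Jup as lower (0.0254), while Ocln did not pass (0.141). That setting passed 1.64% of all genes as higher and 1.43% as lower. With each array centred on its median, Gja1 passed (limma adjusted p = 0.0239), while Ocln (0.0789) and Jup (0.424) did not.

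Relatives of the 10 genes in the AP-2, CDX, GATA and T-box families did not pass the test. The remaining AP-2 genes Tfap2e, Tfap2b and Tfap2d stood at −0.59, −0.45 and −0.14, each lower on both depleted arrays, unlike Tfap2a. Cdx1, the closest relative of Cdx2, stood at −0.46 and Cdx4 at −0.22. Of the other GATA genes, Gata2 stood at −0.63, Gata4 at −0.50, Gata1 at −0.45, Gata5 at −0.09 and Gata6 at 0.02. Of these 10 relatives 7 were lower and 0 higher without overlap, against 33.3% and 27.4% of all genes, and 0 rose and 0 fell (limma; 0 higher and 2 lower at an unadjusted p under 0.05). Only 4 of these relatives lay above the receptor background. Without control replicate 2 the median of the AP-2 genes moved from −0.45 to −0.24 and that of the GATA genes from −0.45 to −0.20. The median of the CDX genes moved from −0.34 to −0.16, and Cdx4 and Gata5 then stood at 0.04 and 0.02. The T-box list held 14 measured genes with 0 rises and 0 falls (limma; 0 higher and 3 lower at an unadjusted p under 0.05), led by Tbx3, a factor of naive cells, at −0.67, Tbx15 at −0.66 and Tbx4 at −0.54. Of the 14, 7 were lower and 0 higher without overlap. Their median moved from −0.23 to −0.12 without control replicate 2. With limma's intensity trend Tbx3 passed as lower (adjusted p = 1.04e-05), where 1.43% of all genes fell, while Tbx15 (0.0909) and Tbx4 (0.177) did not.

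The ETS factors other than Elf5 and Ets2 held 1 call. Of 23 measured, 1 rose and 0 fell, against 2.62% and 0.105% of all genes (limma; 7 higher and 2 lower at an unadjusted p under 0.05), and the median was −0.05. Elf4, an ETS factor best known in lymphocytes, read 6.94 and 6.54 on the depleted arrays, against 5.91 and 5.62 on the control arrays (log2 fold change 0.98, limma adjusted p = 0.0254), all below the receptor background. With the mean of its probe sets in place of the brightest, Elf4 stood at 0.49 and did not pass (limma adjusted p = 0.252), and without control replicate 2 it did not pass either (0.103). Etv6, a repressor of the family, stood at 0.81 (0.34 without control replicate 2) and Erf, a repressor that ERK phosphorylation moves out of the nucleus, at −0.77 (limma adjusted p = 0.0664 and 0.0842). Over all 186 measured genes of these lists outside the 10, 2 rose, Fgfr2 and Elf4, and 0 fell, which is no larger a share than the 2.62% of all genes that rose.

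**Figure D3:**
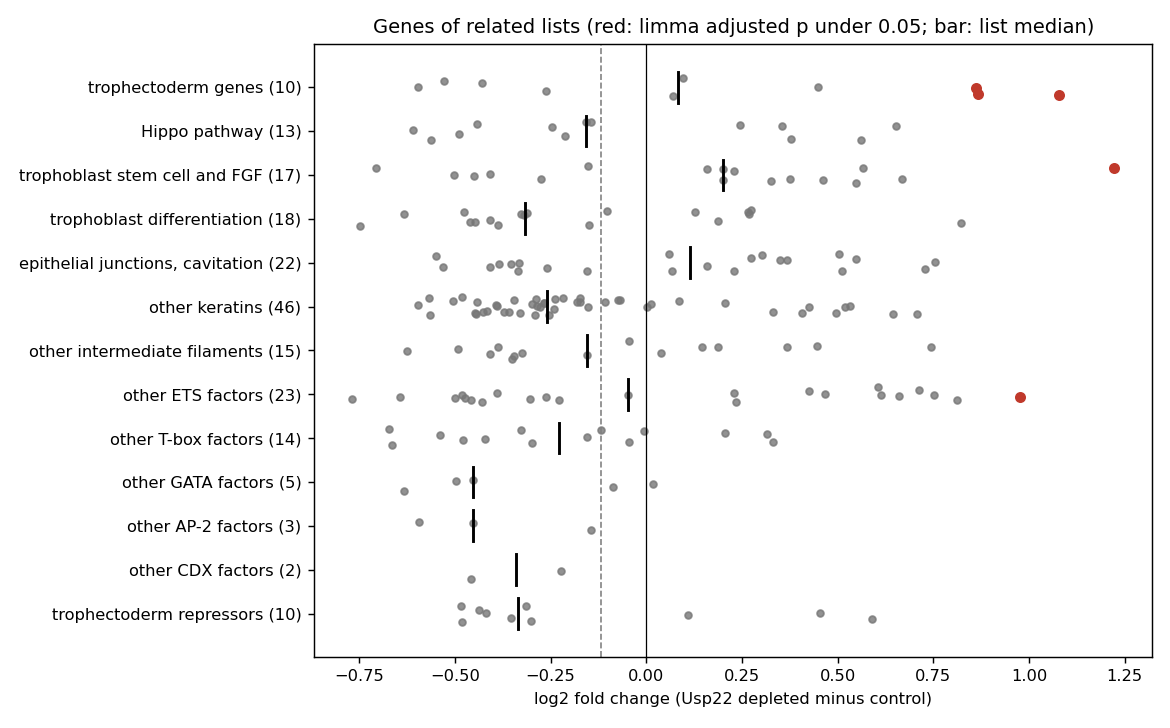
Log2 fold change (Usp22 depleted minus control) of every measured gene in each list, with the number measured in brackets, the list median as a black bar and the median of all genes as a dashed line. Red points passed the test: Plet1, Ets2 and Tfap2a among the 10 trophectoderm genes, Fgfr2 among the trophoblast stem cell and FGF genes, and Elf4 among the ETS factors.

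Markers of other cells were read beside these results. The summed linear signal of 12 primitive endoderm markers was 2392 and 2437 on the depleted arrays, against 2300 and 2318 on the control arrays. That of 9 measured fibroblast markers was 1202 and 1261 on the depleted arrays, against 1265 and 1704 on the control arrays, highest on control replicate 2. The ES cell markers summed to 14523 and 14984 on the depleted arrays, against 15381 and 15503 on the control arrays. The groups did not overlap in these sums, but the fibroblast sums of depleted replicate 2 (1261) and control replicate 1 (1265) were nearly equal. The sums weigh bright genes most, and the counts of single markers differ from them. Of the endoderm markers 3 were higher and 7 lower without overlap (median log2 fold change −0.30), of the fibroblast markers 1 and 5 (−0.30), and of the ES cell markers 4 and 4 (0.03). Over all genes, 27.4% were higher and 33.3% lower without overlap, with a median of −0.12. Neither the endoderm nor the fibroblast markers had a gene that passed (0 rose and 0 fell, limma). Of them 7 of 12 and 5 of 9 lay above the receptor background, as did 9736 of all 19938 genes. Dcn, Lum, Postn and Twist2 of fibroblasts, and Gata6, Sox7, Pdgfra, Foxa2 and Col4a1 of the endoderm, lay below it. Their part in the keratin and Plet1 values was not tested.

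The calls of Plet1, Ets2 and Tfap2a depended on single arrays and on the variance model. None of the 3 passed without control replicate 2, without depleted replicate 1 or without depleted replicate 2. Plet1 passed with limma's intensity trend (adjusted p = 0.0421), its robust settings (0.0214) and both (0.0325), whereas Ets2 and Tfap2a passed under none of these. On the deposited log2 values without scaling, 0 of the 10 rose (limma), and Plet1 had an adjusted p of 0.0774. With 2 arrays per group, the smallest p an exact permutation test allows is 0.333.

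**Figure D4:**
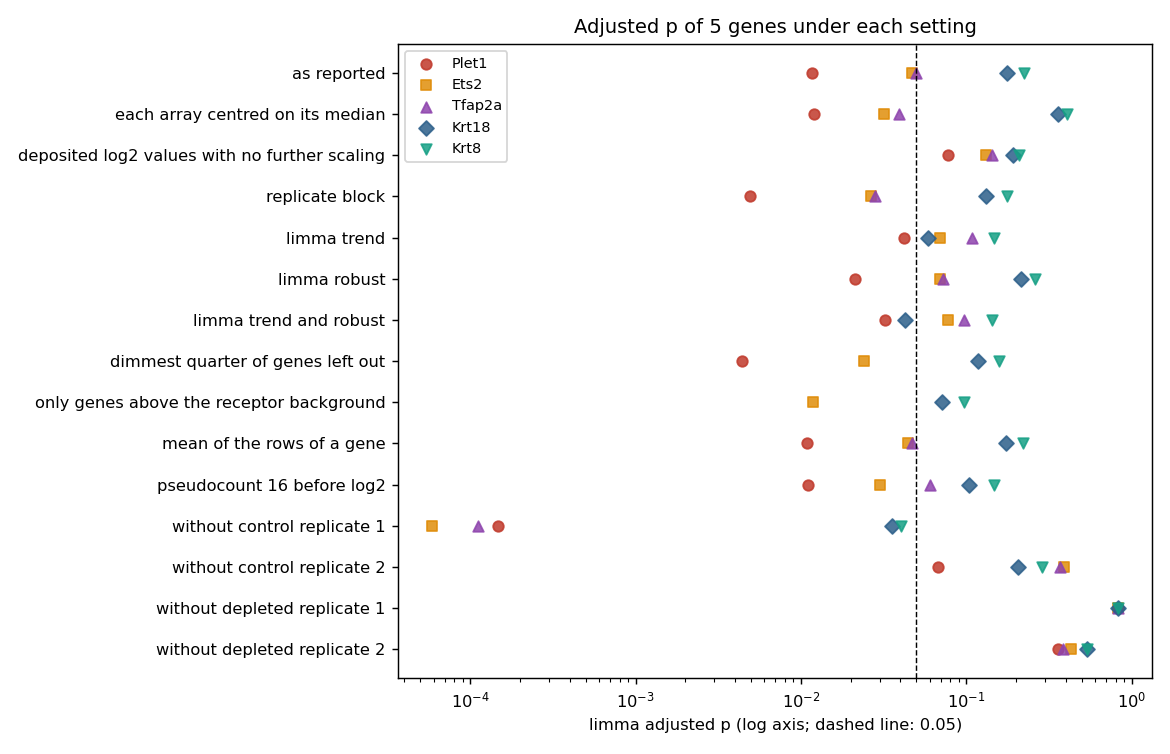
Limma adjusted p (log axis) of Plet1, Ets2, Tfap2a, Krt18 and Krt8 as reported and under each alternative setting, with the threshold as a dashed line. Plet1 lies left of the line under every setting that keeps the 4 arrays and tests it, except the deposited log2 values, and no gene passes without either depleted array.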

How the data were processed

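The authors deposited 1 linear intensity per probe set and array for 28856 probe sets, with a floor at 16. Per the labels' protocols, RNA was purified with Trizol and a column, and biotinylated cDNA was read on Affymetrix arrays. How probes were summarised and scaled is not given in the sources used here.

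Intensities were log2-transformed and the 4 arrays were brought to common quantiles. Probe sets with 1 symbol in GEO's platform annotation (21789) were kept, and the brightest per gene was used, which left 19938 genes. The test was limma's (version 3.58.1, R 4.3.3; lmFit and eBayes, a two-sided comparison of 2 groups), with 2 residual degrees of freedom and infinite prior degrees of freedom, so the standard error was 0.27 for every gene. The code was tested on simulated data. The number of arrays limits precision.

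The 10 genes and the lists were chosen with earlier results of these data known. The naming rule took the 10, Usp22, Pou5f1 and Nanog, up to 3 genes of lowest p per list, and all genes of lists of 5 or fewer. Alternatives covered scaling, pseudocount, dim genes, several probe sets, variance model, replicate block and leaving out each array.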

Additional observations from a re-analysis of the deposited data

How the results depend on the processing

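The 10 genes gave 133 values under the alternatives: 105 kept their direction and side of the threshold, 19 lost a call, 5 gained one and 4, of Gata3 and Tfap2c, changed sign without a call; no value with a call changed sign. The cause of the shifts below was not tested. Of the 10, 3 rose as reported, 0 on the unscaled log2 values, 1 with limma's trend, its robust settings, both, or only genes above the receptor background (where Plet1 and Tfap2a were not tested), 2 with a pseudocount of 16 (Tfap2a at limma adjusted p = 0.0606) or without the dimmest 0.25 of genes (Tfap2a not tested), and 0 to 4 when 1 array was left out. Those of the 10 that fell numbered 0 as reported, 1 with trend and robust settings, and 0 to 3 when 1 array was left out. Over all genes, 523 rose as reported, 927 with arrays centred on their medians, 75 on the deposited log2 values, 326 with the trend, 295 with robust settings, and 0 to 4884 when 1 array was left out. Those that fell numbered 21 as reported, 10 on the deposited log2 values, 286 with the trend, 11 with robust settings, 339 with both, 36 without the dimmest 0.25 of genes, 149 above the receptor background, 47 with a pseudocount of 16, and 0 to 4236 when 1 array was left out. Of the 186 listed genes outside the 10, 2 rose as reported, 4 with median centring, the trend, trend and robust settings or the pseudocount, 1 on the deposited log2 values or with averaged probe sets, and 0 to 37 when 1 array was left out. Those that fell numbered 0 as reported, 11 with the trend, 12 with trend and robust settings, 1 without the dimmest 0.25, 4 above the receptor background, 2 with the pseudocount, and 0 to 51 when 1 array was left out.

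With the replicate number as a block, 856 genes rose and 42 fell, 4 listed genes outside the 10 rose, and the same 3 of the 10 passed. Deviations of same-numbered arrays correlated at 0.105 across genes. With only 2 pairs this value cannot tell whether same-numbered arrays shared a batch, and the labels state no pairing. When an array is left out, the lone array of its group is assumed to vary like the other group. Signals at or below the receptor background limit what can be said of Elf5, Gata3, Eomes and Tfap2a, and of Plet1, whose mean over the 4 arrays lay below it. The same limit holds for Ets2, whose control mean lay below it, and for Cdx2, whose depleted mean did.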
